A study of Mus musculus with 8 samples.

Results

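Ribosome assembly begins in the nucleolus, where a long precursor of the ribosomal RNAs is folded, chemically modified and cut while ribosomal proteins join it. Small nucleolar ribonucleoproteins (snoRNPs) guide the modifications, a large particle called the small-subunit processome builds the future 40S subunit, other factors build the 60S subunit, and the RNA exosome trims and degrades RNA from its 3' end. Growing cells, such as those of an embryonic organ, make many ribosomes, and MYC is a well-known activator of these genes.

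The genes described here are the 57 rows of a table of 51912 genes whose symbols name ribosome biogenesis factors of the Nop, Utp, Rrp, Nol and Imp series or exosome subunits of the Exosc series, together with Fbl, Dkc1, Ncl, Npm1, Gar1, Nhp2, Bop1, Wdr12 and Pes1. The rule used names alone, and 1 pseudogene row was dropped. Of the 57 genes, 56 had enough counts to be tested. By known role, 22 act in small-subunit assembly, 13 in large-subunit assembly, 3 in box C/D snoRNPs, 4 in box H/ACA snoRNPs, 2 are nucleolar histone chaperones and 10 are exosome subunits. The remaining 3, Nol3, Nol4 and Nol4l, match by name but are not known as ribosome assembly factors.

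RNA was measured in embryonic day 16 mouse lung, with 4 Sin3a CKO libraries set against 4 control libraries. The labels conflict on the material, since the extraction protocol names sorted mesenchymal cells while the tissue label reads bulk lung. How pure the cells were is therefore known only from the marker levels below. Sin3a CKO embryos had 2 floxed Sin3a alleles (Sin3a F/F), whereas controls had 1 floxed and 1 wild-type allele (Sin3a F/+). All embryos carried Tbx4rtta and tetocre, which give Cre in Tbx4-expressing lung mesenchyme under doxycycline, and their mothers received doxycycline from embryonic day 12. By genotype the controls can thus lose 1 allele, and they are not wild type. SIN3A is the scaffold of a histone deacetylase corepressor complex.

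Libraries held 96307335 to 106036420 counts in Sin3a CKO and 96098322 to 108493347 in controls. Sin3a itself was at 56.6, 61.0, 53.2 and 61.0 CPM (counts scaled to equal library size) in Sin3a CKO libraries 1 to 4, against 53.7, 46.8, 46.2 and 58.7 CPM in control libraries 1 to 4. This gene-level count did not fall (log2 fold change 0.17 ± 0.09 SE; edgeR adjusted p = 0.191), and it passed as higher in 4 of 19 alternative fits. Which exons are floxed is not stated in the labels, and a count over the whole gene does not check the deletion. The lung mesenchyme markers Tbx4 and Tcf21 averaged 604.8 ± 28.6 and 486.9 ± 38.0 CPM in Sin3a CKO and 669 ± 87.5 and 420.1 ± 34.7 CPM in controls (SD, n = 4 each). The 10 mesenchyme markers together summed to 12420 to 14040 CPM in Sin3a CKO and 17300 to 23740 CPM in controls, and 6 of the 10 fell. These were Foxf1 (by 0.54 on the log2 scale), Col3a1 (0.57), Col1a2 (0.72), Pdgfra (0.89), Col1a1 (0.92) and Pdgfrb (0.99). Tbx4, Tcf21, Tbx5 and Vim did not pass. Erythroid markers summed to 1097 to 4290 CPM in Sin3a CKO and 101.2 to 883.2 CPM in controls, and 6 of 8 rose. Of all tested genes, 17.3% rose and 16.1% fell. Epithelium markers summed to 54.0 to 1300 CPM in Sin3a CKO and 57.1 to 447.6 CPM in controls, and were highest in the 4 libraries whose sample identifiers begin with s1244 (Sin3a CKO 1, 2 and 3 and control 3). The lowest edgeR adjusted p was 0.159 among the 10 epithelium, 0.63 among the 8 leukocyte and 0.13 among the 4 mesothelium markers, and 1 of 8 endothelium markers, Tek, fell. Leukocyte markers summed to 222.1 to 360.4 CPM in Sin3a CKO and 17.9 to 455.3 CPM in controls, endothelium markers to 59.4 to 123.9 CPM in Sin3a CKO and 39.4 to 212.2 CPM in controls. The part of other cell types in the results below was not tested.

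Most ribosome biogenesis genes were higher in Sin3a CKO libraries, and the members that fell by 2-fold or more, Nol3 and Nol4, are not known assembly factors. By edgeR's quasi-likelihood test with Benjamini-Hochberg adjustment over all 20315 tested genes, 30 of the 56 tested members rose, 4 fell and 22 did not pass at an adjusted p under 0.05. Of all tested genes, 33.4% passed, 17.3% as higher and 16.1% as lower. Among the 9901 tested genes with a mean of at least 10 CPM, which include 54 of the members, 29.1% rose and 19.1% fell. The median log2 fold change, Sin3a CKO over control, was 0.36 over the members and 0.04 over all tested genes. Rises were mostly moderate, with 20 of 30 at 0.5 or more on the log2 scale and 3 at 2-fold or more, where 10.2% and 2.61% of tested genes rose that far. All 4 Sin3a CKO libraries lay above all 4 controls for 29 members, against 18.5% of tested genes, and below them for 5 members, against 17.5%. In either direction 34 members were apart, against 36.1% of tested genes. In bulk RNA, a change in the make-up of the cells and a change in RNA per cell cannot be told apart. Upper-quartile scaling lowered the median of all genes by 0.11 and gave 2790 genes higher and 4522 lower over the whole table, in place of 3518 and 3274. Under it, 28 members rose and 6 fell.

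**Figure D1:**
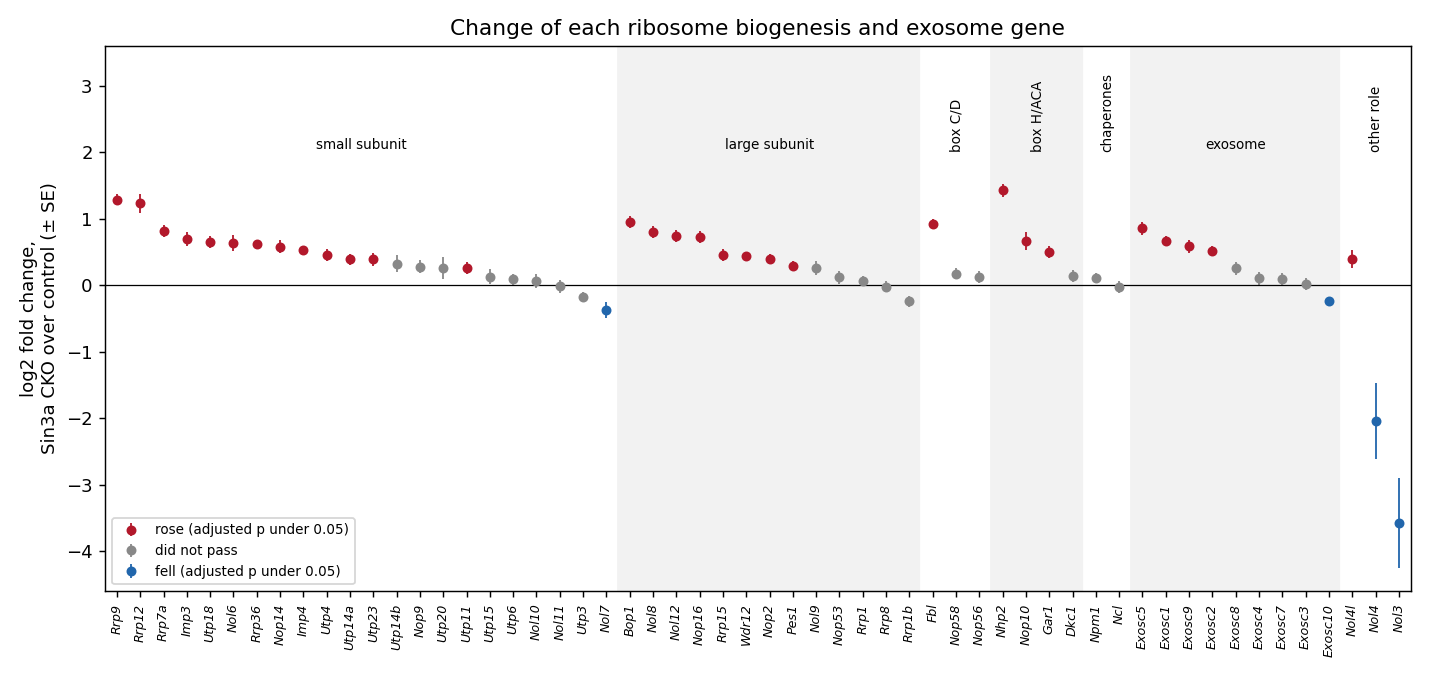
Log2 fold change, Sin3a CKO over control, with its SE (y axis) for the 56 tested members, ordered by role and then by size (x axis); 4 libraries a group. Red points rose, blue points fell and grey points did not pass. Rrp9, Rrp12 and Nhp2 stand highest, Nol3 and Nol4 lowest.

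The summed level of the 57 members was 4964, 5357, 5462 and 5752 CPM in Sin3a CKO 1 to 4, against 4286, 4286, 4123 and 4619 CPM in control 1 to 4. The 2 groups did not overlap in this sum. Per kilobase of exon (RPKM), the median tested member was at 20.2 in Sin3a CKO and 13.7 in controls, and the most abundant, Npm1, at 162 in Sin3a CKO and 150.1 in controls.

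Promoter sequence is shown for 5 members, chosen after values were seen, for the reasons that follow. Nhp2 and Rrp9 had the largest rises of all members and an entry in the RefSeq promoter table. Imp4, Exosc5 and Nol8 are the members with an entry that rose together with a divergent neighbour. Each line gives the 250 bases before the RefSeq start on the plus strand of GRCm38.p6, 5′ to 3′. Capitals mark the letters of 5 motifs on either strand: CACGTG (E-box, bound by MYC and MAX), CCGGAAG (ETS factors), GCATGCG (NRF1 core), GATGGCG (YY1 core) and GGGCGG (SP and KLF factors). TATAAA was searched too.
Nhp2, chr11:51619523-51619772: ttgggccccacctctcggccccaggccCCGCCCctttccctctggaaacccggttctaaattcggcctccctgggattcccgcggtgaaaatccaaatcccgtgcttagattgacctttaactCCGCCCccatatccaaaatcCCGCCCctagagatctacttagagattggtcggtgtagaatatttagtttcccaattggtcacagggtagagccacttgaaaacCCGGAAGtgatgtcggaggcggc
Rrp9, chr9:106477059-106477308: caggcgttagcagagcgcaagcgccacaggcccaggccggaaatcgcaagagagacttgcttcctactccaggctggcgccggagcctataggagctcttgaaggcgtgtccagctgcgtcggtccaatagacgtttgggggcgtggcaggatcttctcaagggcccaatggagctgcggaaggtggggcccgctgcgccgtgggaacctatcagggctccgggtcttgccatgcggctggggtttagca
Imp4, chr1:34439579-34439828: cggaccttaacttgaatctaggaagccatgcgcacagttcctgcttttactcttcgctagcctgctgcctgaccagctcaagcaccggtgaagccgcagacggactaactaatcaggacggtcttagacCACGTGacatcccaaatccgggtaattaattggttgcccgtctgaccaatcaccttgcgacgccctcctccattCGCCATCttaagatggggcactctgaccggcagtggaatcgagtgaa
Exosc5, chr7:25658903-25659152: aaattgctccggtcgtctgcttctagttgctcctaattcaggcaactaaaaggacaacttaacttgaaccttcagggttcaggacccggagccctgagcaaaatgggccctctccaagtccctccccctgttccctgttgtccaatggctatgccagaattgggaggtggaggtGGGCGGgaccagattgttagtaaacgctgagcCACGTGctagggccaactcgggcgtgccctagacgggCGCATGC
Nol8, chr13:49652828-49653077: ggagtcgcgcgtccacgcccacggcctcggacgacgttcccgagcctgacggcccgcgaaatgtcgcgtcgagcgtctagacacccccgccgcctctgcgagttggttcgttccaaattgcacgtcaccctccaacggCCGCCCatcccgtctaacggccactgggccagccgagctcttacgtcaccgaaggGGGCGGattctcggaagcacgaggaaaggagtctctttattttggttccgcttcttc
The Nhp2 window held CCGGAAG 23 bases before the start and the SP and KLF letters at 3 places. The Imp4 window held an E-box 121 bases before the start, and the Exosc5 window held one 44 bases before it. The Nol8 window held no E-box and had the SP and KLF letters at 112 and 57 bases before the start. The Rrp9 window held none of these letters.

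Windows in the table run from 250 bases before to 50 after a start, and 44 of the members had 52 of them. The E-box was in 10 of these 52 windows (19.2%), in 7 of 27 windows of members that rose (25.9%) and in 3 of 25 of the other members (12%), against 7.15% of 32851 windows in the whole table. The shorter letters ACGTG, which every E-box contains, were in 37% of windows of members that rose and 40% of those of the other members, against 19.6% of all windows. CCGGAAG was in 26.9% of the members' windows, in 33.3% for members that rose, and in 8.86% of all windows. GGGCGG was in 67.3% of the members' windows and 35.7% of all. TATAAA was in 9.62% of the members' windows and 13.6% of all, GCATGCG in 5.77% and 3.58%, and GATGGCG in 3.85% and 3.49%. Windows of tested genes alone are the closer comparison, and they held the E-box in 9.26%, ACGTG in 23.8%, CCGGAAG in 14.8% and GGGCGG in 57.5%. They held TATAAA in 8.03%, GCATGCG in 5.54% and GATGGCG in 5.38%, so for TATAAA and GATGGCG the members' share lay on the other side of this comparison than of that with all windows. These are matches of letters in a reference sequence, and binding was not measured. Of the regulators themselves, Max, the partner of MYC, rose (94.5 ± 10.1 CPM in Sin3a CKO and 73.7 ± 3.09 CPM in controls, SD, n = 4 each; log2 fold change 0.36 ± 0.09, edgeR adjusted p = 0.00955). Myc, at 72.5 ± 4.504 CPM in Sin3a CKO and 84.1 ± 11.4 CPM in controls (-0.21 ± 0.10, edgeR adjusted p = 0.139), and Mycn (0.29 ± 0.13, edgeR adjusted p = 0.116) did not pass. The call for Max ended with no filter on low counts (edgeR adjusted p = 0.0556), Myc passed as lower in 3 alternatives, among them upper-quartile scaling (-0.32, edgeR adjusted p = 0.0115), and Mycn passed as higher without control 3 (edgeR adjusted p = 0.041). These 3 were chosen after their values were seen.

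By GENCODE gene starts, 14 members lay head to head with a protein-coding neighbour, with starts 3 to 753 bases apart. In 4 of the 14 pairs both genes rose: Imp4 with Ccdc115 (0.52 and 0.54 on the log2 scale), Exosc5 with Bckdha (0.85 and 0.65), Nol8 with Cenpp (0.81 and 0.91), and Bop1 with Hsf1 (0.95 and 0.38). In another 4 the member rose and the neighbour did not pass, as for Exosc1, at 0.67, and Zdhhc16, at 0.07. In 1 pair they moved apart: Utp4 rose by 0.45 while Chtf8 fell by 0.63. Nop9 did not pass (0.28) while its neighbour Dhrs1 fell by 0.33. In 2 pairs the neighbour rose and the member did not pass (Exosc8 with Alg5, Nol9 with Tas1r1), and in 2 neither passed (Exosc7 with Zdhhc3, Utp15 with Ankra2). Of all 676 such pairs of tested protein-coding genes both rose in 16.1%. Of the 476 risen genes in these pairs 45.8% had a neighbour that rose, a share close to the 4 of 9 among members that rose.

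Among small-subunit factors, 13 of 22 rose, or 59.1%, against 29.1% of tested genes with a mean of at least 10 CPM. Of these factors 1 fell and 8 did not pass, and the median log2 fold change of the 22 was 0.39. The largest rise was that of Rrp9, a protein particular to the U3 snoRNP, which base-pairs with the ribosomal RNA precursor. Rrp9 (ENSMUSG00000041506, chromosome 9) was at 84.1, 94.2, 102 and 103 CPM in Sin3a CKO 1 to 4, against 37.4, 38.4, 38.1 and 43.1 CPM in control 1 to 4. Its lowest Sin3a CKO library was thus well above its highest control. The log2 fold change was 1.29 ± 0.09 (SE; edgeR adjusted p = 2.36e-05).

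Rrp12, which acts in export and late maturation of the pre-40S particle, was at 71.6, 75.3, 61.2 and 101 CPM in Sin3a CKO, against 31.5, 32.7, 30.5 and 36.8 CPM in controls. Sin3a CKO 4 was the highest library and the groups did not overlap (1.23 ± 0.14, edgeR adjusted p = 0.000202). Imp3 and Imp4, which join the U3 snoRNP together with Mphosph10, rose by 0.70 and 0.52, and Mphosph10, from the list of other pathway genes, rose by 0.41. Rrp7a rose by 0.81, Nol6 by 0.63, Rrp36 by 0.62 and Nop14 by 0.58, all of them proteins of the early processome. Utp14a rose by 0.39, a call lost with no filter on low counts (edgeR adjusted p = 0.0619), Utp23 by 0.39 and Utp11 by 0.26.

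The UTP-A and UTP-B complexes bind the precursor early, and their subunits are divided between the members and the other pathway genes. In UTP-B, Utp18 was at 55.5, 59.2, 57.0 and 69.5 CPM in Sin3a CKO, against 39.4, 35.8, 37.1 and 41.0 CPM in controls, a rise of 0.65 ± 0.09 (edgeR adjusted p = 0.000461). Utp6 was at 95.7, 99.3, 88.7 and 103 CPM in Sin3a CKO, against 91.6, 84.9, 87.7 and 99.6 CPM in controls, which overlapped (0.09 ± 0.08, edgeR adjusted p = 0.439). Of the other UTP-B genes, Pwp2 rose by 0.79, Wdr3 by 0.36 and Tbl3 by 0.29, while Wdr36 was at 0.15 and passed as higher in 3 alternatives, among them the fit with the prefix of the sample identifiers as a block (the prefix block). In UTP-A, Utp4 rose by 0.45, Heatr1 by 0.50, Wdr75 by 0.32 and Wdr43 by 0.27, while Utp15 (0.13) and Nol11 (-0.02) did not pass. The calls for Wdr43 and Tbl3 were the least stable of these, lost in 10 and 9 of 19 alternatives. Without 1 library, Wdr43 kept its call only without Sin3a CKO 3, and Tbl3 only without Sin3a CKO 1 or control 4. The call for Heatr1 ended without Sin3a CKO 1 (edgeR adjusted p = 0.0553) or control 1 (0.0538) or 2 (0.0583), and that for Wdr3 without control 1 (0.0521).

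Nol7 fell, with 23.7, 25.4, 31.7 and 21.1 CPM in Sin3a CKO against 32.1, 33.5, 35.1 and 31.3 CPM in controls. Sin3a CKO 3 overlapped the controls, and the log2 fold change was -0.37 ± 0.12 (edgeR adjusted p = 0.0375). That call ended without Sin3a CKO 1, 2 or 4 or control 1, 2 or 3 (edgeR adjusted p between 0.074 and 0.0953). The call for Utp11 (edgeR adjusted p = 0.0452) ended in 16 of 19 alternative fits, among them those without Sin3a CKO 2, 3 or 4 or any 1 of the controls, at edgeR adjusted p up to 0.17 with 1 library left out. Utp23 lost its call without Sin3a CKO 2 (edgeR adjusted p = 0.0549) or control 2 (edgeR adjusted p = 0.0503). Utp14b, an intronless copy of Utp14a known for its need in spermatogenesis, was at 0.32 ± 0.13 and did not pass (edgeR adjusted p = 0.0751). Utp3 was at 48.7, 51.8, 58.1 and 54.9 CPM in Sin3a CKO, against 63.4, 61.3, 58.5 and 58.1 CPM in controls, without a call (edgeR adjusted p = 0.0994). It passed as lower in 9 of 19 alternatives, among them the fits without Sin3a CKO 3 (0.0212) or control 4 (0.0438). Nop9 (0.28), Utp20 (0.26) and Nol10 (0.06) did not pass either. Nop9 passed as higher in 9 alternatives, among them DESeq2, the prefix block and the fit without control 4 (edgeR adjusted p = 0.0316). Utp20 and Utp14b each passed as higher in 4, among them the fit without Sin3a CKO 3 (edgeR adjusted p = 0.0161 and 0.0263).

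**Figure D2:**
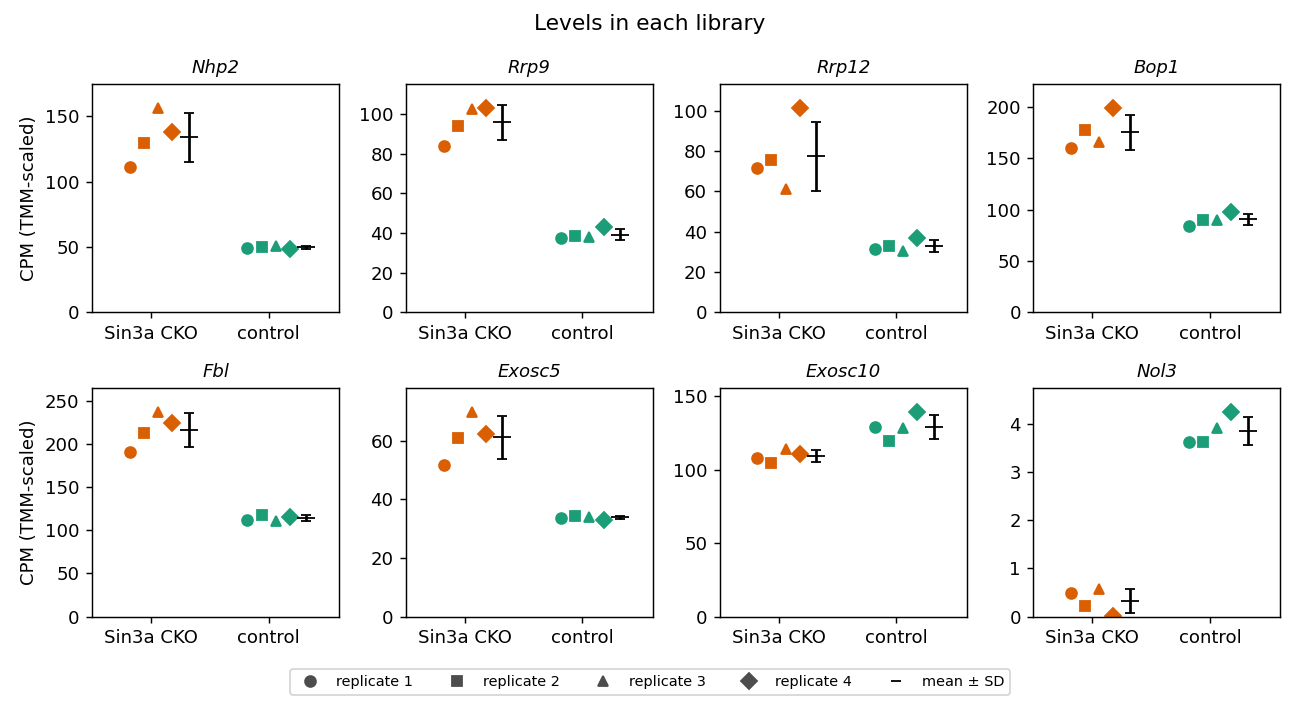
CPM (y axis, from 0) of 8 members in each library, Sin3a CKO on the left and control on the right of each panel; marker shapes give the replicate number and bars the mean ± SD of 4 libraries. Nhp2, Rrp9, Rrp12, Bop1, Fbl and Exosc5 have every Sin3a CKO library above every control, and Exosc10 and Nol3 every Sin3a CKO library below.

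Of 13 large-subunit factors, 8 rose (61.5%) and 5 did not pass, with a median of 0.40. Among tested genes with a mean of at least 10 CPM, 29.1% rose. Bop1, Wdr12 and Pes1 form the PeBoW complex, which is needed to process the ribosomal RNAs of the large subunit. Bop1 (ENSMUSG00000022557, chromosome 15) was at 160, 177, 166 and 199 CPM in Sin3a CKO, against 83.9, 90.2, 90.02 and 97.8 CPM in controls. The groups were far apart, with a log2 fold change of 0.95 ± 0.09 (edgeR adjusted p = 6.88e-05). Wdr12 rose by 0.44 ± 0.07 and Pes1 by 0.30 ± 0.07. The call for Pes1 ended with no filter on low counts (edgeR adjusted p = 0.138).

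Outside PeBoW, Nol8 rose by 0.81, Nol12 by 0.74, Nop16 by 0.73, Rrp15 by 0.45 and Nop2, a methyltransferase of the large ribosomal RNA, by 0.40. Rrp1 did not pass and was at 235, 247, 269 and 243 CPM in Sin3a CKO, against 229, 236, 228 and 258 CPM in controls (0.07 ± 0.07, edgeR adjusted p = 0.557). Its groups overlapped. Its paralog Rrp1b was at 42.2, 42.5, 38.5 and 41.5 CPM in Sin3a CKO, against 49.3, 45.2, 44.4 and 56.1 CPM in controls, without overlap but not past the test (-0.24 ± 0.09, edgeR adjusted p = 0.0569). It passed as lower in 10 of 19 alternatives, among them the fits without Sin3a CKO 3 (edgeR adjusted p = 0.0223) or 4 (0.0234) or control 3 (0.0463) or 4 (0.0293). Nol9 (0.26), Nop53 (0.12) and Rrp8 (-0.02) did not pass. Nol9 passed as higher in 8 alternatives, among them the prefix block and the fits without Sin3a CKO 3 (0.0267) or control 4 (0.0453).

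Box C/D snoRNPs guide methylation of ribosomal RNA, and of the 3 core proteins among the members 1 rose. That share, 33.3%, is close to the 29.1% of tested genes with a mean of at least 10 CPM that rose. Another core protein, encoded by Snu13, was listed with snoRNP assembly. Fbl, the methyltransferase fibrillarin (ENSMUSG00000046865, chromosome 7), was at 191, 213, 237 and 225 CPM in Sin3a CKO, against 113, 118, 111 and 116 CPM in controls. This was a rise of 0.92 ± 0.08 without overlap (edgeR adjusted p = 5.53e-05). Its partner Nop56 was at 178, 191, 204 and 229 CPM in Sin3a CKO, against 193, 184, 167 and 193 CPM in controls, and did not pass (0.12 ± 0.09, edgeR adjusted p = 0.361). Nop58 was at 0.17 ± 0.09 and did not pass (edgeR adjusted p = 0.15). With the identifier prefix as a block, described below, both passed as higher, Nop56 at 0.23 (edgeR adjusted p = 0.038) and Nop58 at 0.28 (edgeR adjusted p = 0.0196).

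Box H/ACA snoRNPs convert uridine to pseudouridine, and their core has 4 proteins, of which 3 rose (75%). Of tested genes with a mean of at least 10 CPM, 29.1% rose. Nhp2 (ENSMUSG00000001056, chromosome 11), an RNA-binding core protein, had the largest rise of all members. It was at 112, 130, 156 and 138 CPM in Sin3a CKO, against 49.4, 50.2, 50.7 and 48.6 CPM in controls. The controls had an SD of 0.919 CPM and every Sin3a CKO library was far above them (1.43 ± 0.10, edgeR adjusted p = 2.66e-05). Nop10 and Gar1, which bind the catalytic subunit, rose by 0.67 ± 0.14 and 0.50 ± 0.09. The catalytic subunit itself, the pseudouridine synthase dyskerin encoded by Dkc1, was at 110, 126, 120 and 137 CPM in Sin3a CKO, against 110, 110, 105 and 123 CPM in controls, and did not pass (0.14 ± 0.09, edgeR adjusted p = 0.262). With the prefix block it passed, at 0.24 (edgeR adjusted p = 0.0375). Dkc1 and Utp14a lie on the X chromosome. Xist RNA, which coats the inactive X in female cells, measured 139, 0.134, 117 and 0.0105 CPM in Sin3a CKO 1 to 4, against 174, 184, 0.185 and 0.0607 CPM in control 1 to 4, so each group held libraries of both kinds.

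The nucleolar chaperones did not pass. Ncl (nucleolin) was at 532, 578, 559 and 665 CPM in Sin3a CKO, against 586, 594, 556 and 645 CPM in controls (-0.03 ± 0.09, edgeR adjusted p = 0.844). Npm1 (nucleophosmin) was at 0.11 ± 0.08 on the log2 scale (edgeR adjusted p = 0.302). Both overlapped between the groups.

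The exosome has a ring of 6 proteins, a cap of 3 and, in the nucleus, the nuclease encoded by Exosc10. Of the 9 tested subunits, 4 rose (44.4%), 1 fell and 4 did not pass. Among tested genes with a mean of at least 10 CPM, 29.1% rose and 19.1% fell. Whether the share among these 9 genes differs from that was not tested. Exosc5, a ring protein (ENSMUSG00000061286, chromosome 7), was at 51.8, 60.9, 69.8 and 62.4 CPM in Sin3a CKO, against 33.8, 34.5, 34.05 and 33.1 CPM in controls. The groups were apart by more than the whole range of the controls (0.85 ± 0.09, edgeR adjusted p = 0.00013). The cap genes Exosc1 and Exosc2 rose by 0.67 and 0.51 and the ring gene Exosc9 by 0.58, whereas the cap gene Exosc3 (0.01) and the ring genes Exosc4 (0.10), Exosc7 (0.09) and Exosc8 (0.26) did not pass. Exosc8 was at 58.7, 66.8, 75.7 and 75.1 CPM in Sin3a CKO, against 61.5, 60.2, 53.5 and 56.1 CPM in controls (edgeR adjusted p = 0.0639). It passed with the prefix block (0.31, edgeR adjusted p = 0.0402) and without Sin3a CKO 1 (edgeR adjusted p = 0.0202).

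Exosc10 moved the other way from the subunits that rose. It was at 108.1, 105, 114 and 111 CPM in Sin3a CKO, against 129, 120, 129 and 139 CPM in controls, without overlap (-0.24 ± 0.07, edgeR adjusted p = 0.023). The call ended without Sin3a CKO 1 or 2 or control 1 or 3 (edgeR adjusted p between 0.0517 and 0.0849), with the log2 fold change between -0.24 and -0.22. Exosc6 was at 0 counts in 7 libraries and 63 in Sin3a CKO 3 and was not tested. All 1326 bases of its exon are also annotated as exon of Aars on the same strand, so its reads may have been counted there.

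The 3 genes that matched by name but have other known roles are given apart. Nol3, which encodes the apoptosis repressor ARC, was at 0.488, 0.216, 0.567 and 0.021 CPM in Sin3a CKO, against 3.64, 3.62, 3.93 and 4.25 CPM in controls. It fell by 3.57 ± 0.68 on the log2 scale (edgeR adjusted p = 0.00332), and 6.82% of tested genes fell by 2-fold or more. Its counts were 52, 21, 53 and 2 in Sin3a CKO and 381, 368, 424 and 420 in controls. Its exons share 1531 bases with 4931428F04Rik on the opposite strand, which fell by 1.11, and reads of the pair cannot be told apart without strand. Nol4, a gene known from neural tissue, was at 0.535, 0.370, 0.139 and 0.147 CPM in Sin3a CKO, against 1.81, 0.709, 1.83 and 0.567 CPM in controls. It fell by 2.04 ± 0.57 (edgeR adjusted p = 0.0206), a call that ended without control 1 (edgeR adjusted p = 0.0626) or control 3 (edgeR adjusted p = 0.0542). Nol4l was at 38.3, 36.6, 26.2 and 42.3 CPM in Sin3a CKO, against 28.2, 25.9, 26.9 and 27.8 CPM in controls. Sin3a CKO 3 lay among the controls, and the rise of 0.40 ± 0.13 (edgeR adjusted p = 0.0425) ended in 11 of 19 alternatives, among them the fits without any 1 library other than Sin3a CKO 3 (edgeR adjusted p between 0.0782 and 0.125).

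**Figure D3:**
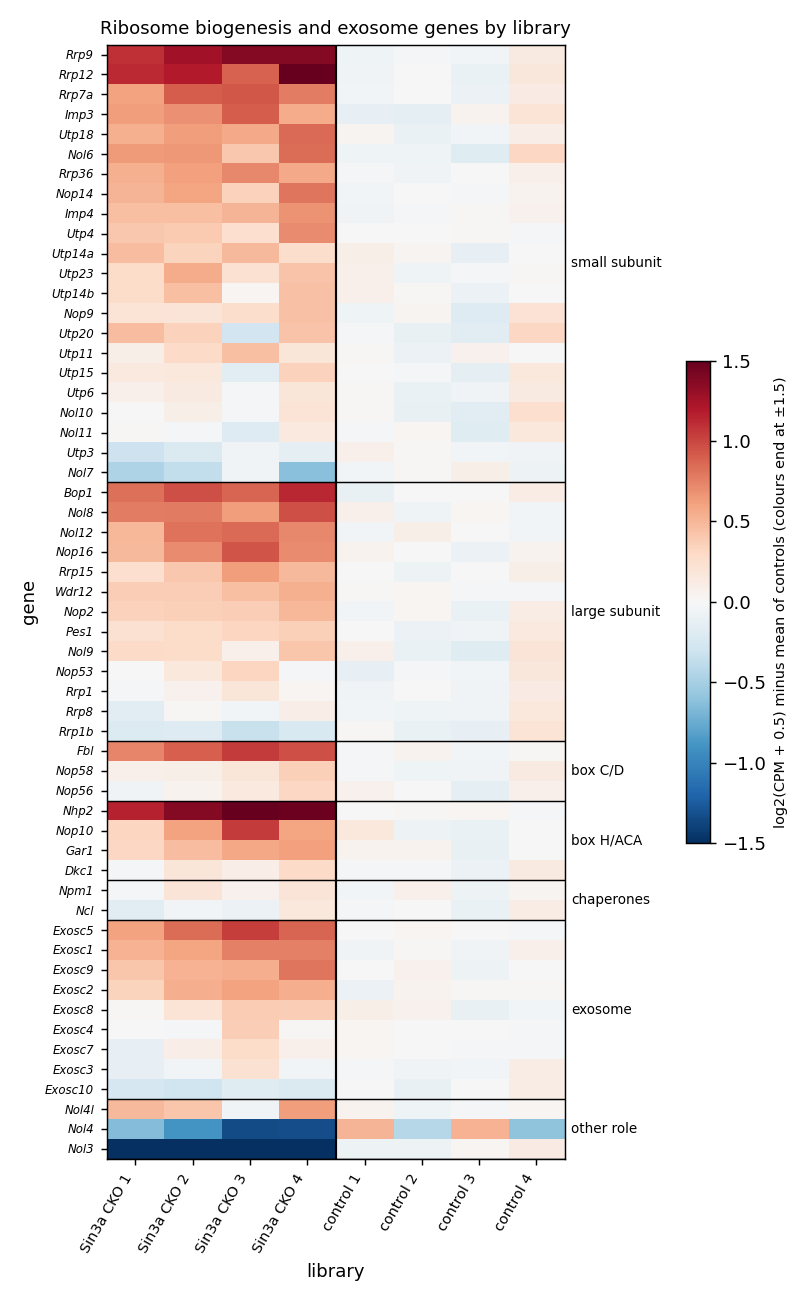
Log2(CPM + 0.5) of the 56 tested members in each library minus the mean of the controls (colour, ending at ±1.5), with genes in rows by role and libraries in columns, Sin3a CKO on the left. Rrp9, Rrp12, Bop1, Fbl, Nhp2 and Exosc5 are red in all 4 Sin3a CKO columns; Nol3 is blue in all 4.

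The other genes of the pathway were listed by role outside the naming rule, and 56.9% of those tested rose in the main fit. Of all tested genes 17.3% rose, and of those with a mean of at least 10 CPM 29.1% rose. Of the 140 listed pathway genes 137 were tested, of which 78 rose, 6 fell and 53 did not pass, with a median of 0.29. These counts include Mpp6 (0.10, did not pass), listed with the exosome cofactors although it is not one of them and differs from Mphosph6. In small-subunit assembly 22 of 33 rose and 1 fell. Rcl1, a cyclase-like processome protein, was at 96.9 ± 10.3 CPM in Sin3a CKO and 44.4 ± 2.73 CPM in controls (SD, n = 4 each; rise of 1.13 ± 0.09, edgeR adjusted p = 3.96e-05), and the export adaptor Ltv1 rose by 0.77 ± 0.07. Bms1, a GTPase of the processome, fell by 0.41 ± 0.13 (edgeR adjusted p = 0.0303), a call that ended without Sin3a CKO 1 (0.0609) or 2 (0.07). In large-subunit assembly 32 of 52 rose and 1 fell. The helicases Ddx27 and Ddx31 rose by 0.65 and 0.77, and Efl1, the GTPase that helps release the anti-association factor eIF6, fell by 0.28, a call that ended without Sin3a CKO 1 or control 1, 2 or 3 (edgeR adjusted p between 0.058 and 0.0758).

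In snoRNP assembly 7 of 14 rose and 1 fell. Shq1, the chaperone of newly made dyskerin, was at 44.2 ± 5.10 CPM in Sin3a CKO and 18.7 ± 2.31 CPM in controls (rise of 1.24 ± 0.11, edgeR adjusted p = 7.18e-05), Znhit6 rose by 0.58 ± 0.08, and Pih1d1, of a chaperone complex for box C/D proteins, fell by 0.50 ± 0.12. Of 20 genes listed as exosome nucleases and cofactors, 6 (30%) rose and 3 fell, with a median of 0.14. The rising share is close to the 29.1% among tested genes with a mean of at least 10 CPM, of which 19.1% fell. Among all tested genes 17.3% rose. The list also holds nucleases outside the exosome, such as Xrn1, Xrn2, Pnpt1 and Dis3l2. Zcchc7, of the complex that adds short tails to nuclear exosome substrates, rose by 0.57, and the exonuclease gene Eri1 by 0.49. Dis3l, which encodes a cytoplasmic exosome nuclease, was at 19.6 ± 0.904 CPM in Sin3a CKO and 40.9 ± 6.03 CPM in controls (-1.06 ± 0.11, edgeR adjusted p = 0.000103), and Hbs1l fell by 0.31. Among genes for transcription of the ribosomal RNA precursor, 11 of 18 rose and 7 did not pass. Cd3eap, an RNA polymerase I subunit, rose by 1.47 ± 0.11 and Polr1e, another, by 1.00 ± 0.09.

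**Figure D4:**
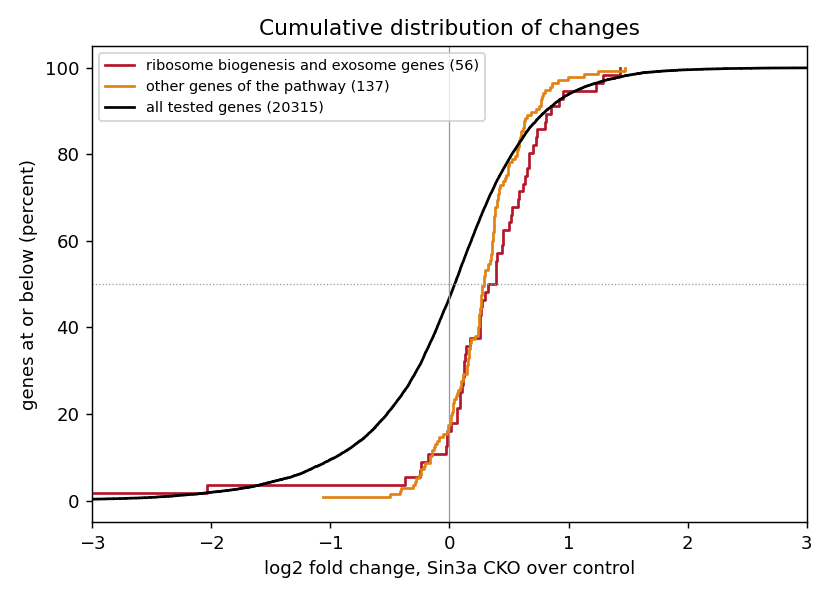
Percent of genes (y axis) at or below each log2 fold change, Sin3a CKO over control (x axis, shown from -3 to 3), for the 56 tested members (red), the 137 other tested pathway genes (orange) and all 20315 tested genes (black). The medians are 0.36, 0.29 and 0.04.

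Libraries also differed in how counts depended on transcript length. The slope of a library's log2 CPM on each doubling of transcript length, after centring each gene, ran between -0.187 and 0.0114 in Sin3a CKO and between 0.0232 and 0.135 in controls, without overlap. Sin3a CKO 3 had the lowest and control 4 the highest slope. With trends on length and GC content removed, all 30 rises and all 4 falls of the members kept their call, 34 rose and 6 fell in all, and the median was 0.39. After that removal the rise was 0.39 for Nop10, 1.23 for Nhp2 and 1.43 for Rrp12. Proliferation markers summed to 3257 to 3996 CPM in Sin3a CKO and 2641 to 3348 CPM in controls, with 4 of 12 called as higher. That share, 33.3%, is close to the 29.1% of tested genes with a mean of at least 10 CPM that rose. The part of cell division in the members' levels was not tested.

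Sample identifiers begin with s686 (Sin3a CKO 4 and controls 1 and 2), s1244 (Sin3a CKO 1, 2 and 3 and control 3) or s722 (control 4), prefixes whose meaning the labels do not give. The comparison within s686 and that within s1244 share no library, and each has a single library on 1 side; they are given as values with no test. Within s686, Xist was high in both controls (174 and 184 CPM) and low in Sin3a CKO 4 (0.0105 CPM), so sex and genotype cannot be told apart there. Within s1244, Xist was low in control 3 (0.185 CPM) and Sin3a CKO 2 (0.134 CPM) and high in Sin3a CKO 1 and 3 (139 and 117 CPM). The part of sex in the values within prefixes was not tested. Of the 56 members, 47 were higher and 6 lower within both prefixes and 3 differed in direction. The same count was not made over all tested genes, so these numbers have no background beside them. All 30 rises and all 4 falls kept their direction within both prefixes. For the 29 rises whose groups did not overlap, and for the falls other than Nol7, this follows from the lack of overlap. It is therefore no further check on those calls. The members' median was 0.45 within s686 and 0.37 within s1244, where the medians of all tested genes were 0.01 and -0.01. Deviations from the group means correlated at 0.12 to 0.329 in the 5 pairs of a Sin3a CKO and a control library with the same prefix, and at -0.468 to 0.113 in the 11 pairs with different prefixes. With the prefix as a block in the fit, control 4, the only s722 library, has a block to itself. It then does not enter the difference between the groups. In that fit 35 members rose and 4 fell. The 6 members that rose under it alone of these 2 fits were Nop56, Nop58, Dkc1, Exosc8, Nop9 and Nol9, and Utp11 lost its call.

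**Figure D5:**
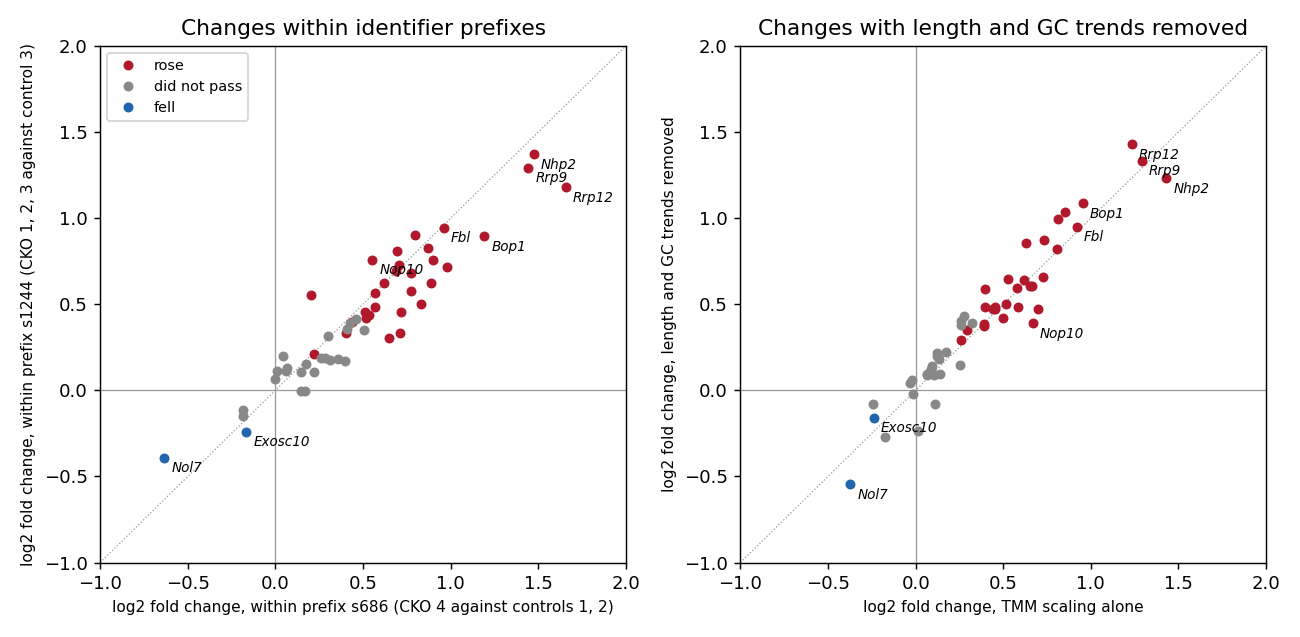
Left, log2 fold change of members within prefix s686 (x axis) and within prefix s1244 (y axis); right, log2 fold change with TMM scaling alone (x axis) and with length and GC trends removed (y axis), each with a dotted line of equality. Red points rose, grey did not pass and blue fell in the main test; Nol3 and Nol4 lie below the axes shown. In the left panel all red points are above 0 on both axes, which the lack of overlap between the groups fixed for 29 of them.

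Counts of some members are less certain because of their neighbours or copies. Exons of 28 members overlap an exon of another annotated gene, such as Exosc9 with Ccna2 over 510 bases and Rrp7a with Serhl over 678 bases, both on the opposite strand. Near-identical copies were found for 5 members (Nop56, Npm1, Pes1, Rrp7a and Wdr12), and of the copies in the table none averaged more than 1.36 CPM.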

How the data were processed

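RNA, from sorted mesenchymal cells by the extraction protocol, was made into cDNA with a SMARTer v4 kit and into libraries with Nextera XT, per the labels' protocols. The deposited values are RSEM expected counts per gene, which the authors gave as whole numbers (100% of values), and the submitters' processing notes name STAR 2.5.3a, RSEM 1.3.0, edgeR and mm10. Whether counting used strand is not stated there. From these, edgeR 4.0.16 (R 4.3.3) was run with TMM scaling, filterByExpr at a minimum count of 10, a robust quasi-likelihood fit on group alone and Benjamini-Hochberg adjustment over 20315 genes; an adjusted p under 0.05 was called. SE is the absolute log2 fold change divided by the square root of F. The script was tested on simulated data. Alternatives used limma 3.58.1 and DESeq2 1.42.0.

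CPM used TMM-scaled library sizes and RPKM the union of exons in GENCODE M21 (GRCm38), which matched 51719 gene IDs. Near-identical copies were searched with BLAST 2.17.0 at 95% identity over at least 80% of the copy. Totals of 96098322 to 108493347 counts a library limit counting error, but reads without molecular identifiers are not independent molecules. P-values measure the spread between these 4 libraries a group.

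The members and lists were chosen with earlier results of these data known. Values in every library are given for Sin3a, for the called member with the smallest p in each direction and the uncalled member with the highest CPM in each role, for the 3 largest called changes in each direction and for changes of 2-fold or more without overlap. In each other pathway list the 2 called genes with the smallest p in each direction are named. Rrp7a, Imp3, Imp4, Mphosph10, Utp18, Utp11, Utp3, Rrp1b, Max, Myc, Mycn, the UTP-A and UTP-B genes and the neighbours were chosen after their values were seen.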

Additional observations from a re-analysis of the deposited data

Results flagged for a closer look

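In 4 of 112 groups of 4 libraries, 1 library lay far from the other 3 by Dixon's criterion at its 95% critical value, where chance gives about 1 group in 20. Nop2 was at 104 CPM in Sin3a CKO 4, with the other Sin3a CKO libraries between 93.4 and 94.7 CPM. Exosc4 was at 77.1 CPM in Sin3a CKO 3, with the others between 58.9 and 60.7 CPM. Rrp8 was at 57.8 CPM in control 4, with the other controls between 49.3 and 50.4 CPM. Rrp9 was at 43.1 CPM in control 4, with the other controls between 37.4 and 38.4 CPM.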

How the results depend on the processing

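Under 19 alternatives (17 planned, 2 added after the data were seen), 25 of the 30 rises and the fall of Nol3 kept their call in every one; 8 calls were lost in at least 1, and 13 members passed only in an alternative. Members called as higher numbered 25 (no filter) to 36, and 27 to 32 with 1 library left out. Members called as lower numbered 1 to 6 with 1 library left out, against 4 in all libraries. They numbered 2, 2, 6 and 4 without Sin3a CKO 1, 2, 3 and 4 in turn. Without control 1, 2, 3 and 4 in turn they numbered 1, 3, 2 and 6. The members' median of 0.36 was 0.25 with upper-quartile scaling, 0.28 with no filter, 0.43 with the identifier prefix as a block, 0.46 with that block after removing length and GC trends, and 0.26 (without Sin3a CKO 4) to 0.37 with 1 library left out. Of the other pathway genes, 78 rose, against 57 with upper-quartile scaling, 47 with no filter and 54 to 72 with 1 library left out. The 6 falls among them became 11 with RLE scaling, 18 with upper-quartile scaling, 15 with no filter, 16 at a mean of at least 10 CPM, 13 with DESeq2, 3 with the prefix block, 10 without control 4 and Sin3a CKO 3, and 4 to 11 with 1 library left out, with 10 without Sin3a CKO 4 and 11 without Sin3a CKO 3. Exosc3, at 0.01, was at -0.23 ± 0.08 with length and GC trends removed (edgeR adjusted p = 0.0388). With no filter 2233 genes of the whole table were higher and 3823 lower. The causes were not tested. A replicate block gave 32 members higher and 4 lower and 6782 genes called over the table, against 6792; same-numbered libraries correlated at -0.123, -0.162, 0.329 and 0.085, not every library correlated best with its own number, and the numbers were not taken as a pairing. At this depth Nol3 in Sin3a CKO, with 2 to 53 counts, and Nol4 have the least precise values.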
